A study of Mus musculus with 2 samples.

Results

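Expression of 9 nuclear receptor genes was read in gastrocnemius, the large muscle of the calf: Esr1, Thra, Thrb, Vdr, Rxra, Rxrg, Nr4a1, Nr4a2 and Nr4a3. They were chosen by gene symbol, and all 9 symbols were found among the 55536 genes of both deposited gene tables. The tissue was labelled as female adult, aged 8 to 10 months, of mouse strain 5xFAD/CAST. This name joins the 5xFAD line and CAST, a wild-derived inbred strain, and the source label does not describe a cross. As background, 5xFAD mice carry mutated human transgenes under neuronal Thy1 promoter elements, and the line serves as a model of Alzheimer's disease. The labels give 2 tissue samples, biological replicates 1 and 2, with 1 donor identifier, and do not say whether they came from separate animals. Both libraries were made from 300 ng of total RNA and form 1 group, with no control tissue or genotype. The data therefore give levels and the spread between the 2 libraries, and no test between conditions was possible.

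Nuclear receptors are transcription factors that carry a zinc-finger DNA-binding domain and, in most members, a pocket for a small fat-soluble ligand. Esr1 codes for oestrogen receptor alpha, which acts as a homodimer. Thra and Thrb code for the thyroid hormone receptors and Vdr for the vitamin D receptor, which bind DNA mostly as heterodimers with a retinoid X receptor, the product of Rxra, Rxrb or Rxrg. In muscle, thyroid hormone is known for raising the rate of contraction and relaxation and for promoting fast-fibre gene expression. Nr4a1, Nr4a2 and Nr4a3 code for orphan receptors whose pocket is filled by bulky side chains, so that their activity is set mainly by how much is made. They are immediate early genes, and exercise and beta-adrenergic signalling are known to induce them in muscle.

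Some sequences show what the later results refer to. The Nr4a promoters are printed because these genes are known targets of CREB, the cAMP-responsive factor, whose site is built on the core TGACG, which reads CGTCA when it lies on the other strand. Each window below runs from 250 bases before to 50 bases after the RefSeq start (GRCm38.p6), on the gene's strand, with the core in capitals. The windows are Nr4a1 at chr15:101266596-101266895 (plus strand), Nr4a2 at chr2:57123954-57124253 (minus strand) and Nr4a3 at chr4:48045055-48045354 (plus strand).
Nr4a1: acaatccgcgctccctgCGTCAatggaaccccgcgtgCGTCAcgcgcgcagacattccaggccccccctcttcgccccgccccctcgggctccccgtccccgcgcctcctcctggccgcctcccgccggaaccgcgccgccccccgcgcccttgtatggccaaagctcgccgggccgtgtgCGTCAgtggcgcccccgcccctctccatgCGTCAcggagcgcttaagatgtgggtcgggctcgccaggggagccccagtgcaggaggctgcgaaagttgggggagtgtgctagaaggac
Nr4a2: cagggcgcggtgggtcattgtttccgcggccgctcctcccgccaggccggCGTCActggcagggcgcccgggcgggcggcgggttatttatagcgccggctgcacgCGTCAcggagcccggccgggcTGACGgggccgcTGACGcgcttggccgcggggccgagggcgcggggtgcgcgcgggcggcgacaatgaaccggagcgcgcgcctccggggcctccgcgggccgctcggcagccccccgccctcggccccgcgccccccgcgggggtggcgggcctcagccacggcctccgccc
Nr4a3: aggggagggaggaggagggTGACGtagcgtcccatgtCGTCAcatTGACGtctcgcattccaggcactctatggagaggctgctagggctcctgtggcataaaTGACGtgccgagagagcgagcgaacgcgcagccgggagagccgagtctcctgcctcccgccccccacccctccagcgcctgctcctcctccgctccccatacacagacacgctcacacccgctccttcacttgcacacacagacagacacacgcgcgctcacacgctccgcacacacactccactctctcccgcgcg
Each of the 3 windows held 4 copies of the core. Of 32851 RefSeq promoter windows of this length, 20.8% held at least 1 copy on either strand and 0.231% held 4 or more. These shares were not matched for GC content. It was 72.3% in the Nr4a1 window, 81.7% in Nr4a2 and 64.7% in Nr4a3, against a median of 52.7% over all windows. None of the 3 held the full palindrome TGACGTCA, which contains the core on both strands and was present in 1.79% of windows. In Nr4a1 all 4 copies were on the other strand, at positions -233, -213, -69 and -40 from the start, whereas Nr4a2 and Nr4a3 had copies on both strands. The RefSeq start of Nr4a1 was the start of the GENCODE transcript Nr4a1-201, and that of Nr4a2 was the start of Nr4a2-203. Nr4a2-203 had 0 counts in library 1 and 18.05 in library 2. In library 1 all 28 counts of Nr4a2 were assigned to Nr4a2-201, which starts downstream at 57115038. The start of Nr4a2 in use cannot be told from so few counts. The RefSeq start of Nr4a3, base 48045305, lay 74 bases downstream of the nearest annotated start, that of Nr4a3-204. Nr4a3-201, with 52.4% and 70.4% of the gene's TPM, starts further upstream, at 48045153, so the copy at -147 lies past that start. A match to these letters is a description and not a site shown to be bound.

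**Figure D1:**
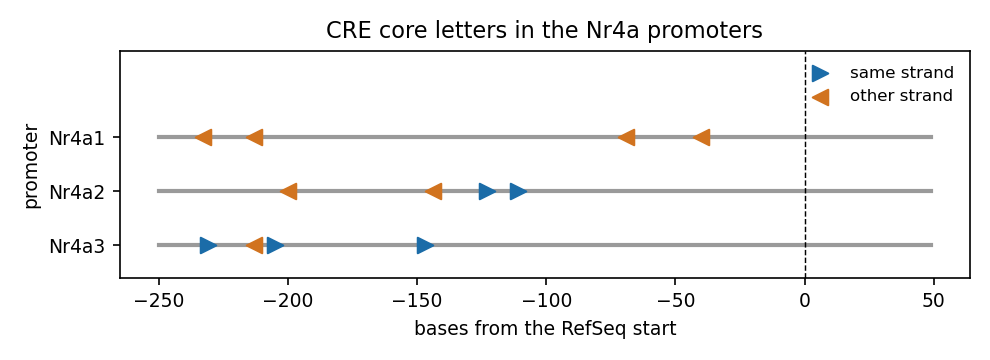
Positions of the CRE core in the promoter windows of the 3 Nr4a genes, in bases from the RefSeq start (dashed line), with triangles pointing right for the gene's strand and left for the other strand. Each window holds 4 copies, all of them before the RefSeq start.

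The RefSeq windows at the 2 starts of Rxrg are printed because the transcripts from these starts differed in level. They lie on chromosome 1, plus strand, at chr1:167598112-167598411 (upstream) and chr1:167618015-167618314 (downstream), and capitals mark the nuclear receptor core AGGTCA, searched on both strands, or the CRE core. The letters TATAAA of a TATA box were searched too and would also be in capitals.
Rxrg upstream: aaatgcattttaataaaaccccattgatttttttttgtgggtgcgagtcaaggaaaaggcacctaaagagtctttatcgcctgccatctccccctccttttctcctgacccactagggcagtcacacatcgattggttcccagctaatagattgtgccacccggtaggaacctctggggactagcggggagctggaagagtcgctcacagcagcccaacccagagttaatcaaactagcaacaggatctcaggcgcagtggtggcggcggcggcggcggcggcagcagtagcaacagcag
Rxrg downstream: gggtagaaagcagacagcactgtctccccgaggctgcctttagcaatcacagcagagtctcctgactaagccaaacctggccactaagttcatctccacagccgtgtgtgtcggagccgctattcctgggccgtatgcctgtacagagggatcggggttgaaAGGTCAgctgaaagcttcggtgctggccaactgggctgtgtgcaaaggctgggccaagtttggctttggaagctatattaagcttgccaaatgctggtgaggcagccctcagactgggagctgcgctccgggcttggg
The downstream window held 1 copy of AGGTCA, at position -88, and the upstream window held none of these letters. AGGTCA was present in 16.3% of all windows and TATAAA in 13.6%. In Rxra, the window at the start of Rxra-202, with 3.04% and 0.126% of the gene's TPM, held 2 copies of AGGTCA. The window at the start of Rxra-201, the leading transcript, held none. A relation between these letters and the levels of the transcripts was not tested.

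Thra makes a pair of proteins from alternative ends, and the point where they part is printed from the GENCODE M21 transcripts. Thra-202 codes for 410 residues, the length of the hormone-binding receptor alpha 1, and Thra-201 for 492 residues, the length of alpha 2, which does not bind thyroid hormone. The shared coding bases, in lower case, end at base 98764405 of chromosome 11 (mm10), and the bases in capitals, all coding, belong to 1 transcript each.
Thra-202: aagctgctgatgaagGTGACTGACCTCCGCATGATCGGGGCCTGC
Thra-201: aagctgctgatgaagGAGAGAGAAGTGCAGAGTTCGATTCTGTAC
Thra-202 reads on at base 98764406, and Thra-201 is spliced to an exon that starts at 98768157.

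The libraries held 35594289 and 34541905 expected counts, and 10994 and 11216 genes reached a TPM of at least 1 (TPM is a gene's share of all transcripts in the library, scaled for transcript length). The tissue label was checked against markers: all 8 fibre markers were above 689 TPM in both libraries. Of the 6 markers each for endothelial cells, fibroblasts, macrophages and satellite cells, 6, 6, 4 and 2 reached TPM 1 in both libraries, and of the 6 lymphocyte markers none did. For adipocytes, Schwann cells and smooth muscle with pericytes, 5 of the 6 markers of each did. Levels of a gene in such tissue are sums over cell types. Fewer cells of a type and less RNA per cell cannot be told apart.

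Of the 9 genes, 7 reached TPM 1 in both libraries: Nr4a1, Rxra, Thra, Rxrg, Esr1, Thrb and Nr4a3, in this order. Nr4a2 and Vdr did not. Nr4a1 had the highest mean TPM of the 49 nuclear receptor genes listed, and Rxra ranked 3. The expected counts of all 9 genes were whole numbers in both libraries.

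Nr4a1 (chromosome 15, 101254269 to 101274795, mm10, plus strand) had 6113 counts in library 1 and 4758 in library 2, which gave 86.69 and 77.78 TPM (82.2 ± 6.30, SD, n = 2). This was higher than 93.3% of the 10682 genes detected in both libraries. Nr4a3 (chromosome 4, 48045153 to 48086447, plus strand) stood at 4.65 and 3.77 TPM (4.21 ± 0.622), from 500 and 478 counts. Nr4a2 (chromosome 2, 57106830 to 57124003, minus strand) had 28 and 26 counts, which gave 0.27 and 0.40 TPM (0.335 ± 0.0919). Nr4a1 held 94.8 ± 0.199% of the TPM of the 3 genes, Nr4a3 4.84 ± 0.336% and Nr4a2 0.391 ± 0.137%. The ranges of the 3 genes over the 2 libraries did not overlap.

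TPM and counts of the rarer Nr4a genes gave different pictures of the libraries. The TPM of Nr4a2 was higher in library 2 with nearly equal counts, and the mean transcript length assigned to the gene was 3568 bases in library 1 and 2583 in library 2. For Nr4a3, whose TPM was lower in library 2, this length was 3639 and 4915 bases. TPM is a share, so it also moves with the shares of other genes. The RNA named 7SL held 35.4% of gene TPM in library 1 and 27.0% in library 2. Deposited TPM was shifted towards library 2 over all genes tested, with a median of 0.17 in log2 units. The TPM ranges and SDs given here include this shared shift, and the part of 7SL in it was not tested. Comparisons between libraries below therefore use counts.

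Of the retinoid X receptors, Rxra (chromosome 2, 27676440 to 27762957, plus strand) stood at 47.32 and 55.69 TPM (51.5 ± 5.92), from 6784 and 6934 counts. Rxrg (chromosome 1, 167598384 to 167639623, plus strand), the form found mainly in muscle and parts of the brain, stood at 21.56 and 27.38 TPM (24.5 ± 4.12), from 1043 and 1171 counts. Rxrb, the widely expressed form, stood at 14.57 and 16.62. Of the summed TPM of the 3 genes, Rxra held 56.3 ± 0.595%, Rxrg 26.7 ± 1.15% and Rxrb 17.1 ± 0.557%. The order of the 3 shares was the same in both libraries and their ranges did not overlap.

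Thra (chromosome 11, 98740638 to 98769006, plus strand) had 1546 and 1533 counts, or 25.21 and 30 TPM (27.6 ± 3.39). Thrb (chromosome 14, 17660261 to 18038090, plus strand) stood at 11.67 and 14.28 (13.0 ± 1.85), from 1210 and 1222 counts. Thra thus held 68.1 ± 0.429% of the thyroid hormone receptor TPM and Thrb 31.9 ± 0.429%, and their ranges did not overlap. On the second quantifier, the authors' other transcript table, the share of Thra was 66.4% and 64.3%.

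Esr1 (chromosome 10, 4611593 to 5005614, plus strand) had 1872 and 2033 counts, or 12.51 and 16.06 TPM (14.3 ± 2.51). It held 99.1 ± 0.0936% of the TPM of the pair of oestrogen receptor genes, and Esr2, the beta form, had 10 and 12 counts. Vdr (chromosome 15, 97854425 to 97910630, minus strand) had 6 counts in library 1 and 1 in library 2, or 0.05 and 0.01 TPM. A count of 0 would allow up to 3 counts, which is 0.0843 CPM (counts scaled to the library total) in library 1 and 0.0869 in library 2. Vdr was at 0.169 CPM in library 1 and, at 0.0290 CPM, under that limit in library 2.

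In the order of levels, some neighbours were not separated. The ranges of Thra and Rxrg overlapped, and so did those of Esr1 and Thrb, though within each library Thra was above Rxrg and Esr1 above Thrb. The second quantifier kept Thra above Rxrg in each library, but gave Esr1 12.02 and 15.34 TPM and Thrb 12.5 and 15.7, the opposite order. Every other pair of neighbours among the 9 genes had ranges that did not overlap. Among the other nuclear receptors, Nr1d1, a repressor of the circadian clock, stood between Nr4a1 and Rxra at 60.8 ± 6.58 TPM. On the second quantifier Nr1d1 was above Rxra in library 1 (59.1 and 44.3 TPM) but below it in library 2 (52.6 and 53.3). Rora, an activator of the clock, stood just below Rxra at 44.6 ± 1.29. Esrra, which drives oxidative metabolism, was just above Thra at 34.3 ± 4.86 TPM, and Nr1h2, a liver X receptor, just below Rxrg at 18.4 ± 1.76. Rxrb stood just above Esr1, with a range that overlapped that of Esr1, and Ppard, a regulator of fatty acid oxidation, just below Thrb at 12.9 ± 3.25, with a range that overlapped that of Thrb. Nr4a3 stood between Rara and Rarg, both retinoic acid receptors, at 4.48 ± 0.170 and 3.06 ± 0.665 TPM. Its range overlapped that of Rara, and in library 1 it was above Rara. On the second quantifier Nr4a3 was above Rarg in library 1 (4.78 and 3.38 TPM) but below it in library 2 (3.72 and 3.80). Of the 40 other receptors, 24 reached TPM 1 in both libraries.

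**Figure D2:**
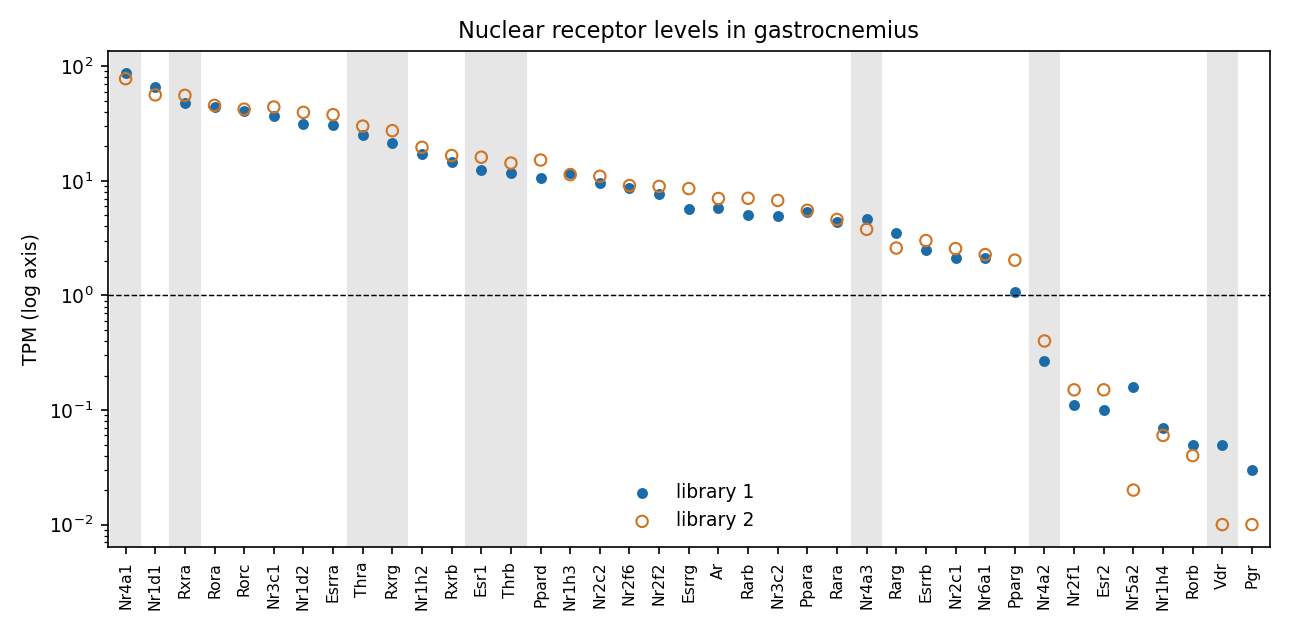
TPM (log axis) of the nuclear receptor genes with a TPM above 0 in both libraries, ordered by mean, with library 1 as filled and library 2 as open points. Grey bands mark the 9 genes described here, and the dashed line marks TPM 1, below which Nr4a2 (0.27 and 0.40) and Vdr (0.05 and 0.01) fall.

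Ratios between the libraries were taken as library 2 over library 1 from counts after TMM scaling (trimmed mean of M values), for the 7 genes with a summed count of at least 100. None of these 7 differed by 1.5-fold or more, against 3.88% of all 11206 genes with such counts. None differed by 2-fold or more either, against 0.767% of all genes, and none was 1.5-fold higher in library 2, against 1.48%. With shares this low over all genes, a count of 0 among 7 is near the background. Their log2 ratios ran from -0.32 to 0.21 with a median of 0.054, beside a median of 0.0072 over all genes, whose central 95% lay between -0.57 and 0.49. Of the 7, 5 were higher in library 2 and Nr4a1 and Nr4a3 were lower, beside 5812 of all 11206 genes that were higher in library 2.

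Nr4a1 had the lowest ratio, at -0.32, with a 95% interval from counting error of -0.38 to -0.27 (exact binomial, Clopper-Pearson). Of all genes tested, 7.58% were lower in library 2 by at least as much. Rxrg had the highest ratio, at 0.21 (0.085 to 0.33), followed by Esr1 at 0.16 (0.067 to 0.25) and Rxra at 0.071 (0.023 to 0.12). The intervals of Thra (0.028), Thrb (0.054) and Nr4a3 (-0.025) included 0. Nr4a2, with 54 counts in all, had a ratio of -0.067 (-0.90 to 0.76). Vdr had a ratio of -2.55 with an interval of -8.07 to 0.50, so its direction was not detectable at this depth. These intervals leave out variation between tissue samples, which 1 library a side cannot give. They also leave out the choice of scaling.

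**Figure D3:**
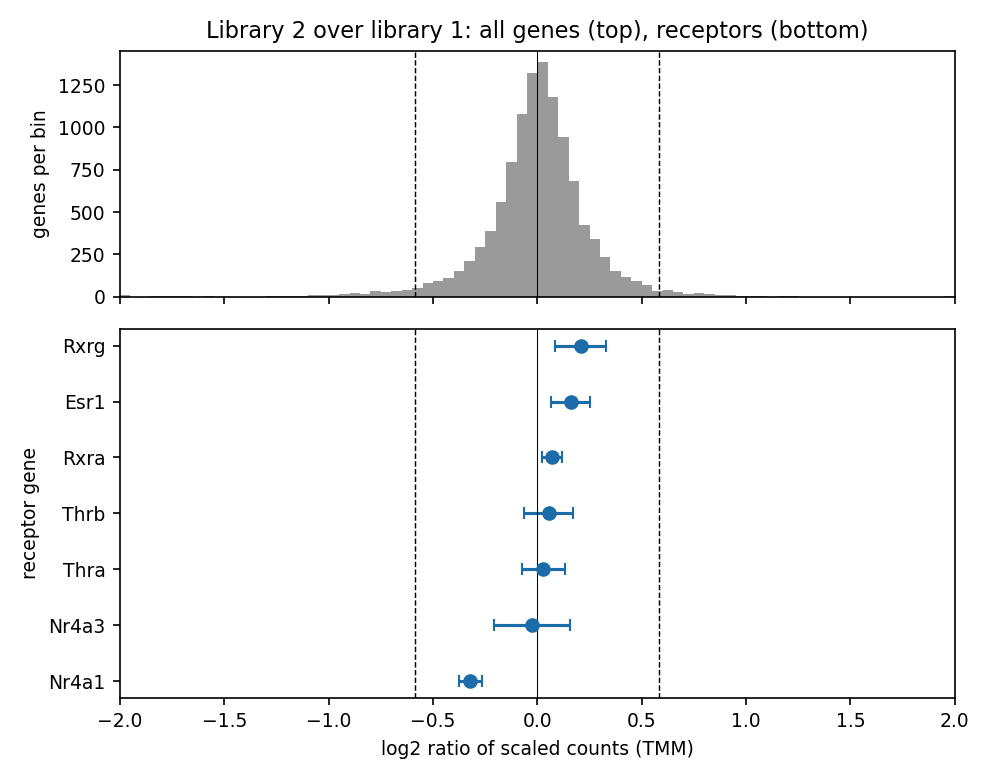
Log2 ratios of library 2 over library 1 (TMM-scaled counts) for all 11206 genes with a summed count of at least 100 (top, bins of 0.05, values past 2 drawn in the end bins) and for the 7 receptor genes among them (bottom, bars are 95% counting intervals). Dashed lines mark 1.5-fold, and all 7 points lie between them, from Nr4a1 at -0.32 to Rxrg at 0.21.

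Of 12 other immediate early genes, 9 had a summed count of at least 100. Of these 9, 5 were at least 1.5-fold lower in library 2, against 2.4% of all genes, and the median of the 9 was -0.65. The other 4, Fosl2, Jund, Junb and Ier2, had ratios from -0.26 to 0.30, nearer to 0 than that of Nr4a1. Whether the list differed from the Nr4a genes was not tested. Fos, a subunit of the AP-1 factor, had 519 and 95 counts, a ratio of -2.41 (-2.74 to -2.09), and Atf3, a stress-induced factor, 160 and 44, a ratio of -1.82 (-2.34 to -1.33). Their part in the ratio of Nr4a1 was not tested. Among 19 genes upstream of Nr4a transcription, of calcium, cAMP and Mef2 signalling, all 19 reached TPM 1 in both libraries. They were led by Mef2c, a muscle transcription factor, at 184 ± 35.6 TPM and Camk2a, a calcium-dependent kinase, at 152 ± 29.4. None of the 19 was 1.5-fold apart (median 0.091), against 3.88% of all genes. The furthest were Crem, a relative of CREB, at 0.36 and Crtc2, a CREB coactivator, at -0.36.

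Of 12 genes of glucose and lipid use linked to Nr4a receptors in muscle, all reached TPM 1, led by Pygm, the glycogen phosphorylase, at 3628 ± 205 TPM and Pfkm, a phosphofructokinase, at 1282 ± 173. Fbp2, the muscle fructose bisphosphatase, had a ratio of -0.84 (-0.95 to -0.72) and Prkag3, a subunit of AMP-activated kinase, one of 0.62 (0.54 to 0.70). These 2 were the only members of that list of 12 past 1.5-fold, against 3.88% of all genes in either direction.

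The transcript tables show which forms of each receptor were present. Rxrg was mainly the short form: Rxrg-202, which starts downstream and codes for 340 residues, held 87.2% of the gene's TPM in library 1 and 80.0% in library 2 (83.6 ± 5.12). The transcripts from the upstream start, which code for 463 residues, held 12.8% and 20.0%. As background, the short form, RXR gamma 2, is the one described in skeletal and heart muscle. Rxrg-202 has 187 exonic bases of its own, all before the coding sequence. The second quantifier gave it 82.8% and 73.8%. It was the leading transcript in each library in both tables, and its share was lower in library 2 in both.

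For Thra, the 410-residue form Thra-202 held 47.1% and 42.1% of TPM (44.6 ± 3.54) and the 492-residue form Thra-201 held 33.7% and 31.7% (32.7 ± 1.43). Thra-203, an incomplete model with no exonic bases of its own that ends inside the last exon of Thra-201, held 16.9% and 25.1%. Counted with Thra-201, the alpha 2 end held 50.6% and 56.8%, above Thra-202. Which end was more abundant therefore depends on where this model is placed. The last exon of Thra-201 also lies across from Nr1d1, transcribed from the other strand, and 263 of its exonic bases are shared with Nr1d1 exons. Nr1d1 had 5192 and 3836 counts. The libraries are directional, but the sources used here do not give whether the counting used strand. Expected counts of both Thra and Nr1d1 were whole numbers in both libraries, whereas a read shared between genes is counted in fractions. The first quantifier thus showed no reads divided between this pair. Tsix had 2 and 0 counts where its antisense partner Xist had 5076 and 4425. This does not settle strand use, because reads that fit both would go mostly to Xist, the more abundant gene, either way.

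The forms of Thrb were less clear. The 475-residue form Thrb-202, of the length of receptor beta 2, held 33.5% and 31.0% of TPM (32.3 ± 1.76), and the 461-residue forms Thrb-201 and Thrb-203, of the length of beta 1, held 38.0% and 36.6% together (37.3 ± 1.05). As background, beta 2 is known from the pituitary, retina and inner ear. Thrb-202 has 2204 exonic bases that no other Thrb transcript covers, of which 325 are coding, 348 lie before the coding sequence and 1531 after it, past the end of Thrb-201. The tables do not say which of these bases the 725.75 and 709.89 counts of Thrb-202 came from, so a share of beta 2 cannot be read from them. The second quantifier gave Thrb-202 25.9% and 24.9%.

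Rxra was almost wholly of the 467-residue form, at 97.0% and 99.6% of TPM. All complete coding models of Esr1 with a share above 1% code for the same 599 residues. Those from the upstream start held 65.9% and 63.3% of TPM, and Esr1-203, from the downstream start, 27.8% and 29.02%, but only 13.2% and 4.84% on the second quantifier. Esr1-203 has no exonic bases of its own, and Esr1-204 has 1853, all after the coding sequence. Nr4a1 transcripts came mainly from the start printed above, at 93.0% and 96.8%, with Nr4a1-202, from a start upstream of it, at 5.203% and 1.76%. The second quantifier put Nr4a1-202 at 10.5% and 15.1%, so its level and its direction between libraries differed between the tables.

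**Figure D4:**
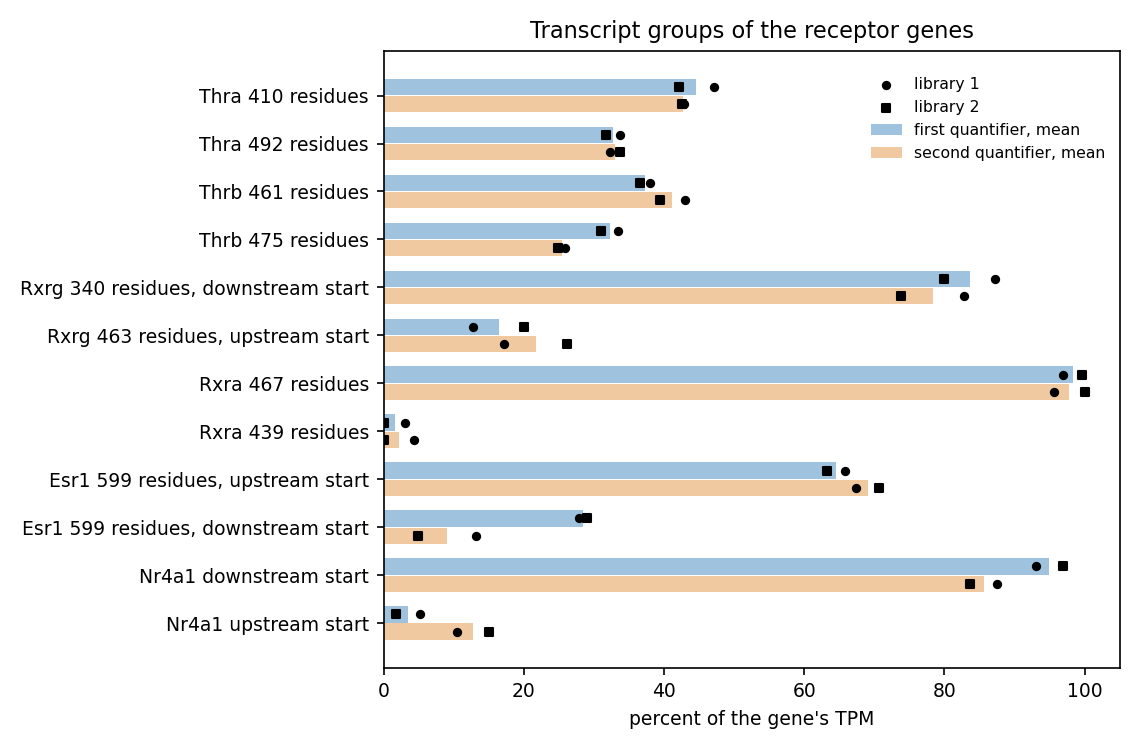
Percent of each gene's TPM held by groups of transcripts, named by the number of residues they code for or by their start; bars are means over 2 libraries for the first (blue) and second (orange) quantifier, circles are library 1 and squares library 2. The 340-residue form leads Rxrg and the 467-residue form leads Rxra in both quantifiers, while the downstream start of Esr1 falls from 28.4% to 9.01%.

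The partners, cofactors and ligand supply of the receptors were read from lists of genes. All 15 coregulators reached TPM 1, led by Ncor1, a corepressor that binds unliganded thyroid hormone receptors, at 47.8 ± 3.37 TPM. Tbl1xr1 and Hdac3, of the same repressive complex, stood at 23.9 ± 3.25 and 23.0 ± 2.55 TPM. None of the 15 was 1.5-fold apart between libraries, against 3.88% of all genes. All 10 chaperone and cochaperone genes reached TPM 1, led by Hsp90ab1, which folds steroid receptors, at 465 ± 35.3 TPM. Among these 10 only Fkbp5, a cochaperone induced by glucocorticoids, was 1.5-fold apart, at -0.76 (-0.83 to -0.70), beside the same 3.88% of all genes.

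Of 10 genes of thyroid hormone supply, 4 reached TPM 1 in both libraries. Slc16a10, a thyroid hormone and amino acid transporter, led at 16.4 ± 0.580 TPM, followed by the amino acid transporter Slc7a8 at 6.87 ± 0.530. Dio2, the deiodinase that makes active hormone inside cells, had 79 and 46 counts, or 0.45 and 0.31 TPM, a ratio of -0.74 (-1.30 to -0.20). Dio1 had 3 and 0 counts and Dio3, which inactivates the hormone, 5 and 3. All 12 genes listed as responsive to thyroid hormone reached TPM 1, led by Atp2a1, the calcium pump of fast fibres, at 12289 ± 985, and Slc2a4, the insulin-regulated glucose transporter, at 191 ± 11.98. None of them was 1.5-fold apart, against 3.88% of all genes. The furthest were Ucp3, a mitochondrial uncoupling protein, at -0.51 and Hr, a corepressor of thyroid hormone receptors, at -0.40.

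Of 10 genes of vitamin D supply and response, 2 reached TPM 1 in both libraries, beside 10682 of all 55536 genes. They were Cyp27a1, a mitochondrial sterol hydroxylase, at 25.5 ± 2.45, and Pdia3, a protein disulfide isomerase, at 14.4 ± 1.94. Cyp24a1, the vitamin D-degrading enzyme and a strong target of the vitamin D receptor, had 0 counts in both libraries, which allows up to 0.0843 and 0.0869 CPM. Of the 15 genes of oestrogen supply and response, 14 matched and 7 reached TPM 1. Aromatase (Cyp19a1), which makes oestrogens, had 0 counts in both libraries, Pgr, the progesterone receptor and an oestrogen target, 6 and 1. Greb1, another target, had 233 and 160 counts, a ratio of -0.50 (-0.80 to -0.21). Of 14 retinoid genes, 5 reached TPM 1, led by Aldh1a1, which makes retinoic acid, at 67.0 ± 9.84 TPM, with a ratio of -0.45 (-0.51 to -0.38).

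By Euclidean distance over log2(TPM + 1) of the 2 libraries, the protein-coding gene nearest to Nr4a1 was Rab12, at 87.4 and 77.5 TPM, and 4 of 10520 genes lay within a distance of 0.1. Psmd1 was nearest to Rxra, at 47.9 and 55.9 TPM, with 64 genes within that distance. Tacc1 was nearest to Nr4a3, with 24 genes. Lgi2 was nearest to Nr4a2, with 13 genes, among those with a summed count of at least 100, which Nr4a2 itself did not have. With 2 libraries this measures little beyond a like level.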

How the data were processed

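Per the file headers and the deposited read-me, each library has a gene table and a transcript table with the columns RSEM writes (the first quantifier, made from a transcriptome alignment) and a transcript table with the columns kallisto writes (the second quantifier, made from the reads), all on mm10 with GENCODE M21. Which software made them was not given in the sources used here, beyond those column names. The deposited expected counts of the first and estimated counts of the second were made by the authors and share reads that fit several entries. The deposited TPM values were scaled by the authors over every entry, the spike-ins among them. Any reads of CAST alleles were assigned against mm10, and the effect on these genes was not tested.

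Symbols came from the transcript tables and coordinates, transcript models and exon bases from GENCODE M21. Expected counts were rounded, and the 96 ERCC spike-ins were left out of the scaling, as were 26249 other entries that name no mouse gene and together held 221 and 255 counts. Scaling used TMM in edgeR 4.0.16 (R 4.3.3). With 1 group of 2 libraries no test was made. Intervals and floors cover counting error only. The ratio script was tested on simulated data. Transcript shares are percent of a gene's TPM. Promoter windows are RefSeq's (GRCm38.p6): 8 of the 9 genes matched, with 12 windows, and Thra has no entry. Protein sequences are not used here.

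Alternatives were DESeq2 1.42.0 size factors, total counts, spike-ins, deposited TPM, the second quantifier, other thresholds and leaving out each library. The 9 genes, the gene lists and the thresholds were chosen with earlier results of these data known. Genes outside the 9 are named as the highest of a list by TPM, those with the largest ratios, the neighbours in the order of nuclear receptors, the gene nearest to a receptor gene in TPM, and genes across from one on the other strand. Xist, Tsix, Esr2, Fosl2, Junb, Ier2, Dio1, Dio3, Cyp24a1, Cyp19a1, Pgr and 7SL were named after their values were seen. A gene of 1 list is not reported here.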

Additional observations from a re-analysis of the deposited data

How the results depend on the processing

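No paired analysis was possible because the labels give 1 group. The 7 receptor genes that reached TPM 1 were also 7 at thresholds of 0.5 and 2, on the second quantifier and in each library alone (7 to 7 when leaving out a library). Mean TPM of all 9 genes moved by less than 1 SD on the second quantifier. The count of genes 1.5-fold apart was 0 under each scaling, on deposited TPM, on the second quantifier and at a mean TPM of at least 5, and 1 without a count filter. That gene was Vdr, with 7 counts. Nr4a1 was lower in library 2 in all settings, at -0.39 with spike-in scaling and -0.16 on deposited TPM, which shifts the median of all genes to 0.17. Relative to that median Nr4a1 was at -0.33. Thra and Thrb, higher in library 2 under TMM, were at -0.043 and -0.016 with spike-in scaling. Rxra, whose interval under TMM left out 0, was at 0.00088 with spike-in scaling, outside that interval. With spike-in scaling 3 of the 7 genes with enough counts were above 0. Nr4a2, lower under TMM, was at 0.57 on deposited TPM. Of 13 transcript shares, 8 moved by more than 1 SD on the second quantifier. The family shares and the order of Esr1 and Thrb were recomputed on it after seeing the data, and 5 of 10 family shares moved by more than 1 SD, the largest from 68.1% to 65.3% for Thra. Depth limits Vdr and Nr4a2, and 2 libraries limit every SD to 1 degree of freedom.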
